A study of Mus musculus with 8 samples.

Results

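The genes described here are 10 transporters that carry bile acids and organic anions across the membranes of the hepatocyte. They were chosen by name, from 19504 genes with a named probe on the array, and each was read from the probes that carry its current or an older symbol. By role, Slc10a1, Slco1a1, Slco1a4 and Slco1b2 serve uptake from blood, Abcb11, Abcb4, Abcc2 and Abcb1a serve export into bile, and Abcc3 and Abcc4 serve export back into blood. The 10 genes had 14 probes, and 9 of the 10 were detected.

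The livers came from wild-type male C57BL/6 mice (the substrain C57BL/6J in the methods), 4 administered a standard chow (STD) diet and 4 administered an atherogenic (ATH) diet, which is high in fat and cholesterol and, per the methods, also holds the bile acid cholic acid. The labels give an age of 14 to 17 weeks at the start and 4 weeks on the diet, and each array held RNA from the whole frozen liver tissue of 1 mouse. Each diet had a slide of its own, and the effects of diet and slide cannot be told apart in any comparison. The comparison asks how transport genes differ in liver after a diet that includes a bile acid, and whether uptake and export genes differ alike.

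Bile acids are made from cholesterol in hepatocytes, pumped into bile, reabsorbed in the intestine and taken up again from portal blood. Slc10a1 (the protein NTCP) carries conjugated bile acids into the cell together with sodium, and the Slco1 carriers take up bile acids and other organic anions without sodium. Abcb11 (the bile salt export pump) drives bile acids into the canaliculus, and Abcc3 and Abcc4 offer an exit to blood. The nuclear receptor FXR, encoded by Nr1h4, is activated by bile acids and is known to raise Abcb11 transcription through an inverted repeat of the half-site AGGTCA spaced by 1 base.

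That repeat was looked for in the RefSeq promoters (build GRCm38.p6, 250 bases before to 50 after a start), which were given for 9 of the 10 genes (not Abcc3). Allowing up to 2 mismatches, 1.14% of all 32851 promoters held it and so did those of Abcb11 and Slco1b2. With up to 1 mismatch the share was 0.0822% of all promoters, and both genes still held it. The matches with up to 1 mismatch are shown 5′ to 3′ on the gene's strand because, of the motifs searched, this repeat was found for Abcb11 and not for Slc10a1. The uptake gene Slco1b2 holds it too, so it does not follow the division into uptake and export. Whether it bears on the signals was not tested. Capitals mark the half-sites and the lower case base is the spacer. The matches shown begin 63 bases before the Abcb11 start and 88 bases before the Slco1b2 start. A further Abcb11 match, with 2 mismatches, begins 94 bases before the start and is left in lower case in the promoter printed further below.
Abcb11: AGGCCAtTGACCT
Slco1b2: AGGACAgTGACCT

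The 250 bases before the Abcb11 start (GRCm38.p6, chr2:69342617-69342866, minus strand) are printed with this repeat in capitals, and the 250 bases before the second annotated Slc10a1 start (chr12:80968080-80968329, minus strand) with a single AGGTCA half-site in capitals, which lies 87 bases before that start. The half-site, searched on both strands and counted also inside the repeat, was in 16.3% of all promoters and in those of 5 of the 9 genes (Abcb11, Abcc2, Slc10a1, Slco1a1 and Slco1b2). The antioxidant-type element TGACNNNGC, searched in the same way, was in 12.4% of all promoters and in those of Abcb1a, Abcc2 and Abcc4. A match is only a run of letters and was not tested as a binding site.
Abcb11: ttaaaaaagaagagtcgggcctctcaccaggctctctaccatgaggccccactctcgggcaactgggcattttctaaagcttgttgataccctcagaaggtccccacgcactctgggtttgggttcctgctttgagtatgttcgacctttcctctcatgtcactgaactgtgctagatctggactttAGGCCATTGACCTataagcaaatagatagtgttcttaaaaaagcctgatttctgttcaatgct
Slc10a1: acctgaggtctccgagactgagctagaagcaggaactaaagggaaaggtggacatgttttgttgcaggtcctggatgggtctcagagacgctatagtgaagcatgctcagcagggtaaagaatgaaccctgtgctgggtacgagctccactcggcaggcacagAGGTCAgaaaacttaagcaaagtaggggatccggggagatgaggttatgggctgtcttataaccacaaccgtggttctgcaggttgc

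The unit throughout is the scaled log2 signal, which is the log2 of the processed spot intensity minus the 75th percentile of its array. Because each probe binds with its own strength, signals were compared between arrays for the same probe and never between probes. Across the series 31063 of 41174 probes were detected, between 72.35% and 77.76% of spots were well above background on each array, and arrays of the same diet correlated at 0.986 to 0.991 for STD and at 0.971 to 0.990 for ATH. The 75th percentile itself lay 0.45 higher (log2) on the ATH arrays, whereas 10 spike-in controls lay 0.14 higher. The median log2 fold change of all detected genes was therefore -0.14 with this scaling, 0.31 with no scaling and 0.17 with spike-in scaling, and differences of this size cannot be assigned a direction. A gene was called when limma's adjusted p (Benjamini-Hochberg over all detected probes) was under 0.05 for its brightest probe.

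Of the 9 detected transporters, 3 were called lower on the ATH diet, namely the uptake carriers Slc10a1 and Slco1a4 and the basolateral exporter Abcc3, and 0 were called higher by limma, where 0 were higher at an unadjusted p under 0.05 as well. Among all 16563 detected genes, 5.29% were called lower and 4.05% higher, or 877 and 670 genes. That split depends on the scaling: 224 genes were called lower and 4286 higher with no scaling, 232 and 1649 with spike-in scaling, 496 and 705 with quantile normalization, 483 and 723 with median scaling, and 2618 and 931 after normexp background correction. The canalicular exporters Abcb11, Abcb4 and Abcc2 were not called. At an adjusted p under 0.01, the threshold of the study's methods, 0 of the 9 passed, where 0.64% of all genes did, and by the methods' test with unequal variances 0 passed 5%, a threshold that only 11 of the 16563 genes passed by that test. The same 3 genes passed an unadjusted 0.05. When replicate number entered the model as a block, 1 of the 9 was called lower (Abcc3), beside 2.75% of all genes. In these 3 genes each ATH array lay below each STD array, which held for 14.6% of all genes.

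**Figure D1:**
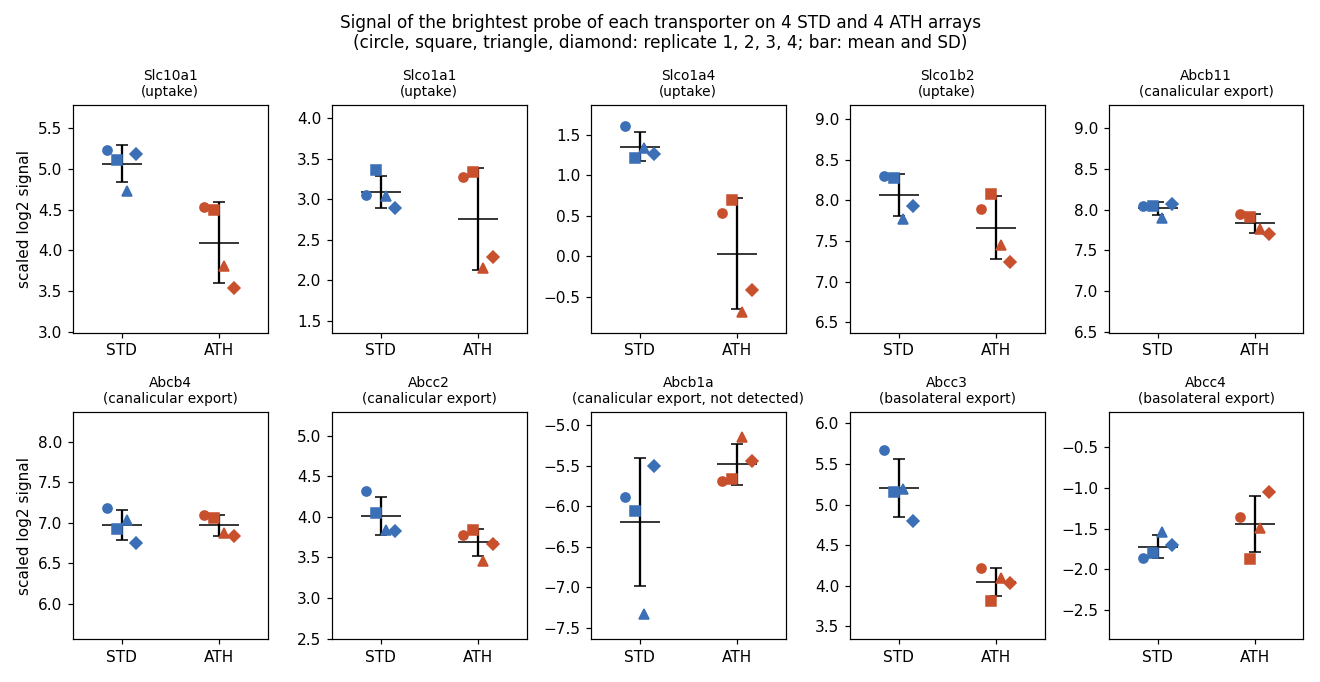
Scaled log2 signal of the brightest probe of each of the 10 transporters (vertical axes, each spanning the same number of log2 units) on the 4 STD and 4 ATH arrays; points are mice with the symbol giving the replicate number, and bars give the mean and SD. The ATH points lie below all STD points for Slc10a1, Slco1a4 and Abcc3 and overlap the STD points for the others.

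Slc10a1, the main sodium-dependent bile acid carrier of the sinusoidal membrane, was read by a single probe at chr12:78923269-78923328 on the minus strand of mouse build mm7, the build of the array design. Its 60 bases are printed because Slc10a1 is the uptake gene of the pair set against Abcb11; they read, 5′ to 3′:
Slc10a1: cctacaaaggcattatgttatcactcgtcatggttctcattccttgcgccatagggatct
Slc10a1 gave scaled log2 signals of 5.24, 5.11, 4.73 and 5.19 on STD replicates 1 to 4 and 4.53, 4.50, 3.81 and 3.53 on ATH replicates 1 to 4. All ATH arrays were lower than all STD arrays, and ATH replicates 3 and 4 were the lowest. Slc10a1 fell by 0.98 on the log2 scale (SE 0.25, 95% confidence interval -1.54 to -0.42, n = 4 per diet), to 50.8% of the STD level, with a limma adjusted p of 0.0472. The call did not hold with the replicate block (limma adjusted p = 0.0552), nor when any of the 4 STD arrays, ATH replicate 3 or ATH replicate 4 was left out (limma adjusted p between 0.0794 and 0.118). Over all probes, leaving out any of these arrays cut the number called lower from 1533 to between 246 and 708. The Slc10a1 call was also lost with median scaling (limma adjusted p = 0.0688), quantile normalization (0.0689), spike-in scaling (0.0862) and no scaling (0.0875), under which Slc10a1 fell by 0.53.

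Slco1a4, an organic anion transporting polypeptide of the sinusoidal membrane that also takes up bile acids, was read at chr6:141858334-141858393 (mm7, minus strand). Its scaled log2 signals were 1.60, 1.21, 1.34 and 1.26 on STD replicates 1 to 4, and 0.53, 0.70, -0.68 and -0.41 on ATH replicates 1 to 4. Again no array of the ATH diet reached the STD range, and replicates 3 and 4 lay below replicates 1 and 2. Slco1a4 fell by 1.32 on the log2 scale (SE 0.30, 95% confidence interval -2.01 to -0.63, n = 4 per diet), the largest decrease of the 9 genes, with a limma adjusted p of 0.0381. Its call was also lost with the replicate block (limma adjusted p = 0.0531) and without any STD array, ATH replicate 3 or ATH replicate 4 (limma adjusted p between 0.0674 and 0.0997). Without any of these arrays the probes called lower over the series dropped from 1533 to between 246 and 708. Slco1a4 has close relatives in the same cluster on chromosome 6, and cross-hybridization of the probe was not tested.

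Slco1a1, the carrier of this cluster that is abundant in male mouse liver, had a pair of probes. The brighter probe (chr6:141961072-141961131, mm7) gave 3.05, 3.36, 3.04 and 2.89 on the STD arrays and 3.27, 3.33, 2.15 and 2.29 on the ATH arrays. ATH replicates 1 and 2 lay within the STD range and replicates 3 and 4 below it, so the groups overlapped. The difference was -0.33 (log2, SE 0.29, 95% confidence interval -0.98 to 0.32, limma adjusted p = 0.48), and the dimmer probe gave -0.40. With no scaling the difference of the brighter probe was 0.12, so its direction depends on the scaling.

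Slco1b2, the liver carrier of conjugated bilirubin, bile acids and many drugs, was read at chr6:141738135-141738194 (mm7, plus strand). It gave 8.30, 8.27, 7.77 and 7.93 on the STD arrays and 7.89, 8.08, 7.45 and 7.24 on the ATH arrays. ATH replicates 3 and 4 were the lowest of the 8 arrays, and ATH replicates 1 and 2 lay within the STD range. The difference was -0.41 (log2, SE 0.22, 95% confidence interval -0.90 to 0.09, limma adjusted p = 0.25), and it was 0.04 with no scaling.

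Abcb11, the pump that sets bile acid output into the canaliculus, was read at chr2:69168882-69168941 (mm7, minus strand). It gave 8.05, 8.04, 7.90 and 8.07 on the STD arrays and 7.95, 7.91, 7.76 and 7.70 on the ATH arrays. All 8 values lay close together and the diets overlapped, although the lowest values, 7.76 and 7.70, were both on the ATH diet. The difference was -0.18 (log2, SE 0.12, 95% confidence interval -0.45 to 0.08, limma adjusted p = 0.324), so a fall or rise of the size seen in Slc10a1 lies outside the interval. With quantile normalization it was 0.16, with spike-in scaling 0.13 and with no scaling 0.26, none of them called. Over the 8 arrays the Abcb11 signal correlated with that of Slc10a1 at a Pearson r of 0.98, the highest among pairs of the detected transporters. The r was taken on the scaled signals, where Abcb11 had the smaller range. With no scaling the diet difference was 0.26 for Abcb11 and -0.53 for Slc10a1, which are opposite directions. The likeness of these genes between arrays therefore describes the scaled signals only. That r pools both diets and carries no test.

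Abcb4, the floppase that supplies phosphatidylcholine to bile, showed the smallest difference of the 9 genes. Its brighter probe (chr5:8996752-8996811, mm7) ranged from 6.75 to 7.18 on the STD arrays and from 6.84 to 7.10 on the ATH arrays. The ATH values all lay inside the STD range, and the difference was -0.0013 (log2, SE 0.13, 95% confidence interval -0.31 to 0.30, limma adjusted p = 0.996). Its dimmer probe (chr5:8978600-8978659, mm7) gave 1.91, 1.28, 1.69 and 1.58 on the STD arrays and 1.45, 1.46, 1.85 and 1.69 on the ATH arrays. The groups overlapped for this probe too, and the difference was -0.00013 (log2, SE 0.17, 95% confidence interval -0.38 to 0.38). With no scaling the brighter probe was 0.45 higher on the ATH diet (limma adjusted p = 0.0441), a setting in which 4286 of 16563 genes were called higher and the median of all genes was 0.31.

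Abcc2, which exports conjugated bilirubin and glutathione conjugates into bile, was read at chr19:43731462-43731521 (mm7, plus strand) and gave 4.32, 4.05, 3.84 and 3.83 on the STD arrays and 3.78, 3.84, 3.46 and 3.67 on the ATH arrays. The ATH values lay at or below the low end of the STD values, with an overlap at ATH replicate 2. The difference was -0.32 (log2, SE 0.15, 95% confidence interval -0.67 to 0.03, limma adjusted p = 0.204), and it was 0.125 with no scaling. Abcb1a, a drug efflux pump, was well above background on 0 of the 4 STD arrays and 1 of the 4 ATH arrays at its single probe (chr5:8785623-8785682, mm7), so no fold change is given for it.

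Abcc3, an exporter of the basolateral membrane that returns glucuronides and bile acids to blood, had a pair of probes that both fell. The probe in the 5′ direction (chr11:94473410-94473469, mm7, minus strand) is shown because a second site within the gene gave the same direction:
Abcc3: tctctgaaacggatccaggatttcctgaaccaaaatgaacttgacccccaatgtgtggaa
The brighter probe (chr11:94452396-94452455) gave 5.67, 5.15, 5.19 and 4.80 on the STD arrays and 4.22, 3.81, 4.10 and 4.04 on the ATH arrays. All ATH arrays lay below all STD arrays, and here ATH replicates 3 and 4 lay between ATH replicates 2 and 1, whereas they were the lowest arrays for the uptake carriers. Abcc3 fell by 1.16 on the log2 scale (SE 0.19, 95% confidence interval -1.59 to -0.73, n = 4 per diet), to 44.8% of the STD level, with a limma adjusted p of 0.0167 and of 0.0366 with the replicate block.

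The dimmer Abcc3 probe gave -1.49, -1.98, -2.0 and -2.37 on the STD arrays and -3.15, -2.93, -2.90 and -2.98 on the ATH arrays, again with no overlap. It fell by 1.03 on the log2 scale (SE 0.18, limma adjusted p = 0.0195), and with the replicate block its limma adjusted p was 0.05. The call of the brighter probe was lost only when STD replicate 3 was left out (limma adjusted p = 0.0531), among the 8 arrays left out in turn. That probe fell by 0.71 with no scaling (limma adjusted p = 0.0489) and by 0.85 with spike-in scaling (limma adjusted p = 0.0487).

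Abcc4, the companion exporter of the basolateral membrane, was the only detected gene of the 10 with a positive difference after scaling to the 75th percentile. Its brighter probe (chr14:112885129-112885188, mm7) gave -1.86, -1.80, -1.54 and -1.70 on the STD arrays and -1.36, -1.88, -1.49 and -1.05 on the ATH arrays. ATH replicate 2 was the lowest of all 8 values and the other ATH arrays were the highest, so the diets overlapped. The difference was 0.28 (log2, SE 0.18, 95% confidence interval -0.13 to 0.69, limma adjusted p = 0.337). With no scaling it was 0.73 and was called higher (limma adjusted p = 0.0482), as were 4286 of 16563 genes, and the dimmer probe, well above background on 1 STD and 3 ATH arrays, gave 0.31.

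**Figure D2:**
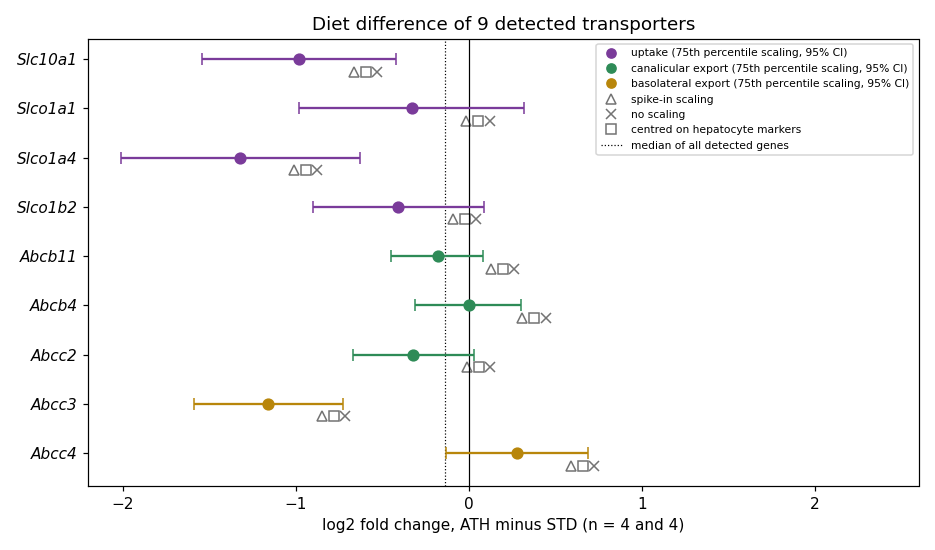
Log2 fold change of the ATH diet against the STD diet for the 9 detected transporters (horizontal axis); filled points with bars are the estimate and its 95% confidence interval after scaling to the 75th percentile, and open grey symbols are the same probes after spike-in scaling, no scaling or centring on hepatocyte markers. The intervals of Slc10a1, Slco1a4 and Abcc3 lie below 0 and these genes stay below 0 under the 3 other scalings, whereas Abcb11 and Abcb4 lie above 0 under all 3.

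The uptake genes were set against the export genes within arrays, where the scaling of the array cancels. The median log2 fold change was -0.69 for the 4 uptake genes, with 2 called lower, and -0.18 for the 5 detected export genes, with 1 called lower. Their difference was -0.51, a description with no test. On single arrays the uptake median minus the export median, both relative to the STD mean, was -0.01, 0.16, -0.16 and 0.07 on STD replicates 1 to 4 and -0.30, -0.12, -0.84 and -0.87 on ATH replicates 1 to 4. ATH replicates 1, 3 and 4 lay below all STD arrays and ATH replicate 2 lay within their range.

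Of 4 pairs of an uptake gene with an export gene, Slc10a1 over Abcb11 was the pair whose diets did not overlap. The log2 ratio, minus its STD mean, was 0.13, 0.01, -0.22 and 0.07 on the STD arrays and -0.48, -0.46, -1.0 and -1.23 on the ATH arrays. It fell by 0.79 on the log2 scale (SD 0.15 for STD and 0.38 for ATH, n = 4 per diet; two-sided exact permutation test, p = 0.0286). That is the smallest p that 4 arrays against 4 allow, and adjusted over the 4 pairs it was 0.114, which does not pass 0.05. With replicates paired by number, an exact test of the signs gave p = 0.125, the smallest it can give.

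The other pairs overlapped between diets. Slco1b2 over Abcc4 changed by -0.68 on the log2 scale (SD 0.40 for STD and 0.69 for ATH; exact permutation test, p = 0.114, adjusted 0.229). Slco1a4 over Abcc3 changed by -0.16, with both genes of the pair called lower (exact permutation test, p = 0.714, adjusted 0.952). Slco1a1 over Abcc2 changed by -0.0052 (exact permutation test, p = 1). In these 3 ratios the ATH arrays spread over 0.87 to 1.67 log2 units.

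**Figure D3:**
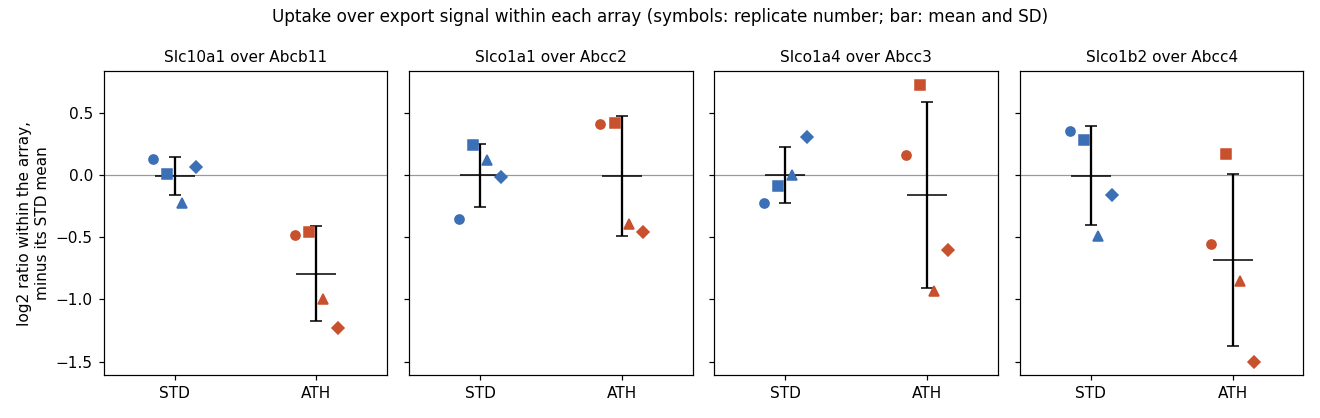
Log2 ratio of an uptake gene over an export gene within each array, minus the STD mean of the ratio (vertical axis), for 4 pairs on 4 STD and 4 ATH arrays; symbols give the replicate number and bars the mean and SD. For Slc10a1 over Abcb11 the ATH arrays sit between -1.23 and -0.46, below all STD arrays, and in the other panels the diets overlap.

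Marker genes of other liver cells moved with the diet in the same tissue. All 18 macrophage markers had a positive difference under every scaling tried, 9 of them called higher, or 5 with the replicate block (Lyz2, the lysozyme of myeloid cells, by 2.27 on the log2 scale), and their summed scaled signal was 97.2 to 125 on the STD arrays and 332, 182, 802 and 881 on ATH replicates 1 to 4. Of 18 hepatocyte markers 16 had a negative difference and 2 were called lower, Tat and Ass1 (1 with the replicate block), with sums of 7540 to 8110 on the STD arrays and 6490, 6990, 5520 and 5250 on ATH replicates 1 to 4. Over all genes 5.29% were called lower and 4.05% higher. The median log2 fold change of the hepatocyte markers was -0.36, and 0.06 with quantile normalization, so its sign depends on the scaling. The ATH arrays with the highest macrophage sums, replicates 3 and 4, were those with the lowest uptake medians (-1.10 and -1.19, against -0.36 and -0.28 on replicates 1 and 2). Changes in the number of hepatocytes, in RNA per hepatocyte and in the share of RNA from other cells cannot be told apart in whole liver.

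Cholangiocyte markers, which mark the bile duct cells, had a median log2 fold change of 0.04, with 12 of 13 detected (not Ggt1), 0 called lower and 1 called higher (Sox9, by 1.04), and sums of 23.8 to 33.1 on the STD arrays and 31.8 to 110 on the ATH arrays. Of 12 stellate cell markers 2 were called higher and of 12 endothelial markers 2 were called higher, where 4.05% of all genes were called higher. Of 11 detected lymphocyte markers 0 were called by limma (1 lower and 3 higher at an unadjusted p under 0.05) and 0 by the unequal-variance test. With the replicate block 1 stellate and 1 endothelial marker were called. These counts depend on the scaling, and with no scaling 9 stellate, 7 endothelial and 4 lymphocyte markers were called higher. The stellate sums were 22.8 to 29.4 on the STD arrays and 31.2 to 53.7 on the ATH arrays, the endothelial sums 30.0 to 40.1 and 33.1 to 46.2, and the lymphocyte sums 3.51 to 4.43 and 2.98 to 10.1. Defining hepatocyte genes such as Alb were detected.

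With each array centred on the median hepatocyte marker, a setting chosen after the data were seen, Slco1a4 was still called lower (-0.94 on the log2 scale, limma adjusted p = 0.0389) and so was Abcc3 (-0.78, limma adjusted p = 0.0495). Slc10a1 was at -0.60 (limma adjusted p = 0.0628). Abcb11 and Abcb4 were then at 0.20 and 0.38 and not called, and Slco1b2 at -0.02. The part of the cell makeup in the transporter differences beyond this setting was not tested.

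**Figure D4:**
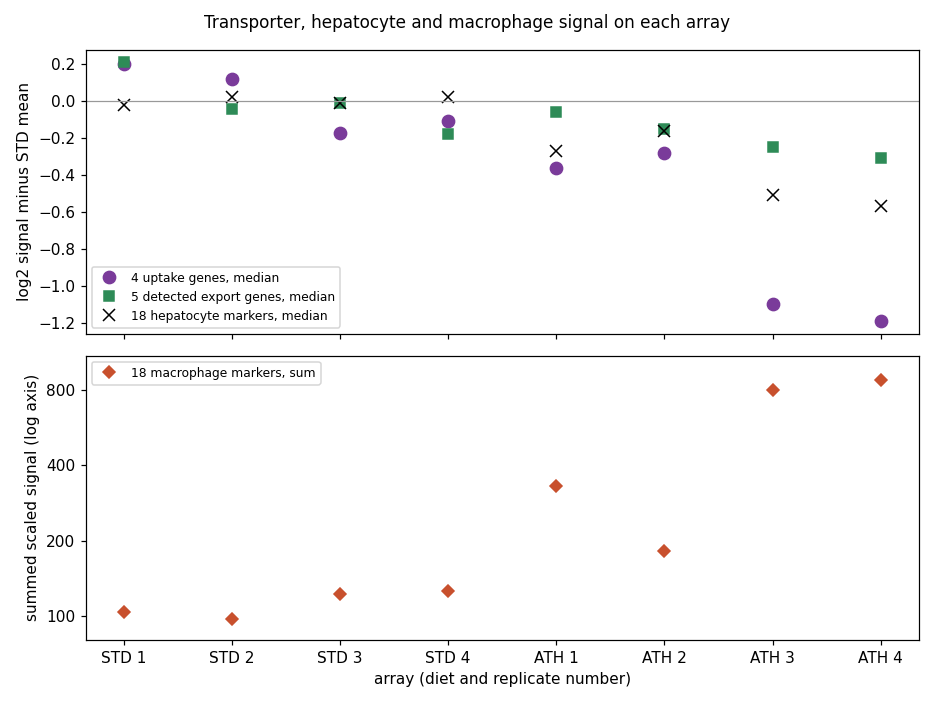
Upper panel, median log2 signal of the 4 uptake genes, the 5 detected export genes and 18 hepatocyte markers on each array, minus the STD mean; lower panel, summed scaled signal of 18 macrophage markers on a log axis. ATH replicates 3 and 4 have the lowest uptake medians (-1.10 and -1.19), the lowest hepatocyte medians (-0.51 and -0.57) and the highest macrophage sums (802 and 881).

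Other carriers that import bile acids and organic ions were mixed. Of 14 detected genes in this list, 2 were called lower, 1 was called higher, and the median log2 fold change was -0.36, or 0.09 with no scaling. Slco2a1, the prostaglandin carrier, fell by 1.11 on the log2 scale (limma adjusted p = 0.0152), and Slc22a5, the carnitine carrier, by 0.83 (limma adjusted p = 0.016), although the latter was not called with no scaling. Slc10a3, an orphan relative of Slc10a1, rose by 0.50 (limma adjusted p = 0.0478), and with the replicate block it was not called (limma adjusted p = 0.054). The remaining 11 genes did not pass the test.

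Other export genes differed most in the upward direction, with 4 of 15 detected genes called higher and 1 called lower, beside 670 and 877 of all 16563 genes. The count called higher was 8 with no scaling, 7 with spike-in scaling and 3 with quantile normalization. Abcg5 and Abcg8, the half-transporters that together export cholesterol into bile, rose by 2.09 and 2.20 on the log2 scale (limma adjusted p = 0.019 and 0.00866). Slc51b, the beta subunit of the basolateral bile acid exporter, rose by 1.99 (limma adjusted p = 0.0427, and 0.0528 with quantile normalization), while its partner Slc51a was at -0.50 and not called. Abcc1, a basolateral exporter found in many cell types, rose by 1.81 (limma adjusted p = 0.0298, and 0.0533 with the replicate block), and Slc47a1, which exports organic cations, fell by 0.89 (limma adjusted p = 0.0222).

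Genes that anchor or traffic the transporters gave 1 called lower and 1 called higher of 16, near the shares over all genes (5.29% lower and 4.05% higher). Slc9a3r1, a scaffold beneath the canalicular membrane, fell by 0.49 on the log2 scale (limma adjusted p = 0.0479), a call lost with the replicate block (limma adjusted p = 0.0598) and with median, quantile or spike-in scaling or none, where it was at -0.05. Msn, which links membranes to actin and is common in leukocytes, rose by 1.61 (limma adjusted p = 0.0135). The list median was -0.06, and 0.38 with no scaling.

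Of 18 regulators of these genes, 0 were called in either direction by limma, with or without the replicate block, and 0 by the unequal-variance test. Over all genes limma called 5.29% lower and 4.05% higher. At an unadjusted p under 0.05 by limma, 3 regulators were lower and 1 was higher. Nr1h4 (FXR) was at -0.56 (SE 0.24, limma adjusted p = 0.165) and Nr0b2, the repressor SHP that FXR induces, at 0.31 (SE 0.27, limma adjusted p = 0.465). Hnf4a, a nuclear receptor that maintains hepatocyte gene expression, was at -0.13 (limma adjusted p = 0.577). Although 16 of the 18 were negative, the list median of -0.31 became 0.13 with no scaling.

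Enzymes of bile acid synthesis and conjugation held the largest decrease among the genes named here. Of 17 detected genes 5 were called lower, or 3 with the replicate block, and 0 higher by limma, beside 5.29% lower and 4.05% higher of all genes. At an unadjusted p under 0.05 by limma, 7 were lower and 0 higher, and the unequal-variance test called 0. The list median was -0.40, or 0.04 with no scaling. Cyp8b1, which directs synthesis toward cholic acid, fell by 4.00 on the log2 scale (SE 0.65, limma adjusted p = 0.0164). Akr1d1 fell by 1.20, Cyp7b1 by 1.05, Cyp27a1 by 0.72 and Acot8 by 0.51, of which Cyp7b1 was still called with no scaling, as was Cyp8b1; Akr1d1 and Acot8 were not called with the replicate block. Cyp7a1, the rate-limiting enzyme of the classic pathway, was at -0.48 (SE 0.55, limma adjusted p = 0.597), with a spread between mice larger than the difference.

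**Figure D5:**
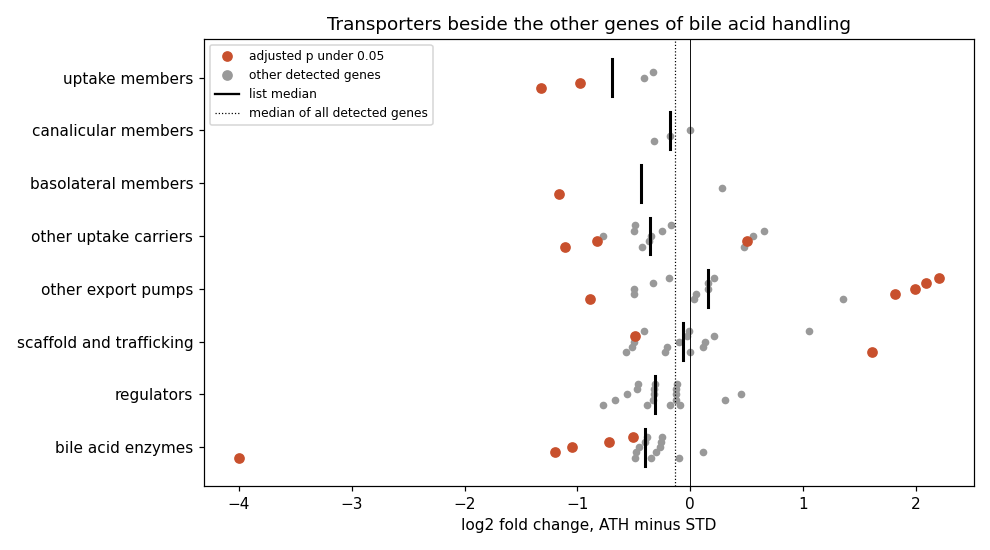
Log2 fold change of the ATH diet against the STD diet (horizontal axis) for each detected gene of the transporter groups and of the other lists of bile acid handling; red points have a limma adjusted p under 0.05, black bars are list medians and the dotted line is the median of all detected genes. Export genes other than the 10 transporters reach 2.20, and Cyp8b1 lies at -4.00 among the enzymes.

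The genes whose signals over the 8 arrays were most like those of a transporter were listed for 3 of them, among 16555 genes, as a description of these arrays. For Slc10a1 they were Prlr, the prolactin receptor (Pearson r = 0.992), Acp1 (0.991) and Mcoln1 (0.989). For Slco1a1 they were Mettl22 (0.991), Fahd1 (0.990) and BC065397 (0.990), and for Abcb11 they were Efcab2 (0.992), Dcun1d1 (0.987) and Eif4h (0.986). These r values pool 2 diets, each on a slide of its own, and they carry no test.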

How the data were processed

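Liver RNA from 8 mice (4 STD, 4 ATH) was measured on 1-color Agilent whole mouse genome arrays, 1 mouse per array. The deposited files hold spot intensity values from Agilent Feature Extraction 9.5 (per the labels), which the authors ran with 1-color defaults, so that background and spatial trends are removed within arrays and nothing is scaled across them. The deposited flags (a score of 0 or 1 per spot) mark spots well above background and outliers. The authors also deposited log2 values from GeneSpring, used as an alternative. For 99.5% of probes detected on all arrays their differences between arrays equal those of the log2 intensity plus a constant per array, within 0.001, and the column medians lie between -0.0394 and 0.164. The scaling behind them and the baseline of each probe are not given in the sources used here.

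Control spots and flagged outlier spots were dropped, the remaining spots of each probe were averaged, and the 75th percentile of the array over non-control probes was subtracted from the log2 intensity. A probe was detected when it was well above background, positive and significant, with no outlier flag, on at least 3 of the 4 arrays of a diet. Probes were named by accession (22951), symbol (6661) or synonym (3097) through RefSeq genes of GRCm38.p6, and 8465 had no such match and are not counted as genes. A gene is given by its probe with the highest mean over the 8 arrays, and the other probes are given for the transporters only. Diets were compared with limma version 3.58.1 (R 4.3.3; lmFit, eBayes, two-sided, Benjamini-Hochberg over 31063 detected probes). Exact permutation tests enumerated all 70 assignments. In simulated data for this comparison, with a log2 change of 2 in 200 of 31049 probes, limma at 5% recovered 90% of them and made 10 false calls among 190. That change is larger than the change of any detected transporter. Noise was drawn separately for each probe, with no effect of slide or cell makeup, so the share recovered does not apply to the transporters.

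The transporters, the lists and the rule for named genes (every transporter with each probe; in the other lists at most 5 called genes per direction; the 3 most similar genes for Slc10a1, Slco1a1 and Abcb11) were chosen with earlier results of these data known. Replicate numbers mark the position on the slide. Deviations of arrays with the same number from their diet means correlated at 0.1003, 0.2295, 0.1815 and 0.1767, all over 0.1, which was read as pairing, and a model with replicate number as a block was fitted too. The number of arrays limits the precision. P-values set the difference between diets, which includes that between slides, against the spread between mice of the same diet. They hold no spread between slides. Alternatives covered background correction (normexp, offset 50), scaling, the deposited values, filters, the test, the threshold, the probe, the block and leaving out each array.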

Additional observations from a re-analysis of the deposited data

Results flagged for a closer look

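Of 18 groups of 4 arrays (9 detected transporters on each diet), 1 held an array far from the others. Abcb11 on STD replicate 3 was at a scaled log2 signal of 7.90, with the other STD arrays between 8.04 and 8.07, and its gap to them was 0.856 of the range of the group. Chance alone flags about 1 in 20 groups.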

How the results depend on the processing

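The count of 3 transporters called lower became 1 with no detection filter and 1 with the replicate block. It became 0 by the unequal-variance test and 0 at 1%, and was 0 to 3 when arrays were left out in turn. Over all probes, 1533 of 31063 were called lower with the main processing and 698 of 41174 with no detection filter. The number over all probes was 843 with the replicate block, 16 by the unequal-variance test and 246 to 2216 when arrays were left out in turn. The count called higher became 2 with no scaling (Abcb4 at 0.45 and Abcc4 at 0.73) where 4286 of 16563 genes were called higher, and otherwise stayed at 0.

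Slc10a1 lost its call with median scaling (-0.90), quantile normalization (-0.75), no scaling (-0.53), spike-in scaling (-0.67) and centring on hepatocyte markers (-0.60), the last chosen after seeing the data. It lost its call at an unchanged -0.98 with no detection filter, the unequal-variance test, the replicate block and 1%, as Slco1a4 did at -1.32, and Abcc3 did at -1.16 with the unequal-variance test and 1%. Leaving out each array in turn, Slc10a1 ranged from -1.12 to -0.79, Slco1a4 from -1.54 to -1.08 and Abcc3 from -1.29 to -1.01. The paired analysis by replicate block left the fold changes as they were and moved no other transporter across 5%.

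Directions turned for genes that were not called. Without scaling Slco1a1 was at 0.12, Slco1b2 at 0.042, Abcb11 at 0.26, Abcb4 at 0.45 and Abcc2 at 0.125. Centred on hepatocyte markers Slco1a1 was at 0.054, Abcb11 at 0.20, Abcb4 at 0.38 and Abcc2 at 0.059. With quantile normalization Abcb11 was at 0.16 and Abcb4 at 0.31, with spike-in scaling at 0.13 and 0.31, and Abcb4 was at 0.03 with normexp and 0.073 with median scaling. Leaving out each array, Abcb4 ranged from -0.075 to 0.068, the ratio Slco1a1 over Abcc2 from -0.145 to 0.145 and Slco1a4 over Abcc3 from -0.46 to 0.095.

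The difference of the uptake and export medians stayed between -0.63 and -0.385 in every setting run. Scaling to a percentile, the median, spike-ins or hepatocyte markers subtracts 1 constant per array and by construction shifts every gene alike, whereas quantile normalization does not and moved Slco1b2 over Abcc4 from -0.68 to -0.30; other causes were not tested. Genes at the background, here Abcb1a and the dimmer Abcc4 probe, are limited by signal.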
